A study of Caenorhabditis elegans with 2 samples.

Results

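The ceh genes are homeobox genes of Caenorhabditis elegans that carry a numbered ceh name, and 62 of them, all protein-coding, were examined out of 19973 nuclear protein-coding genes. They were taken by name from the Ensembl annotation of build WBcel235 (ce11), with 1 such gene not analysed here. The rule uses names only, although the group was proposed with earlier results of these data known. The assay was chromatin immunoprecipitation sequencing (ChIP-seq) of LIN-13 from whole worms at the L4 larval stage, deposited as peak lists, in 1 group of 2 biological replicates with no second condition. The worms were strain OP49, a mixed-sex population that carried the unc119(ed3) mutation and the transgene wgIs49, in which lin-13 is joined to TY1, EGFP and FLAG tags and an unc119 copy accompanies it. The tagged protein came from an added transgene, and a peak from whole animals does not say in which cells LIN-13 sat at a gene. A peak was assigned to a gene when its summit fell within the gene or 2 kb of it.

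Homeobox genes encode transcription factors with a homeodomain, a helix-turn-helix fold that grips short AT-rich sites. In the worm they set the identity of single neuron classes, muscle, hypodermal and gland cells, and each is usually transcribed in few cells. LIN-13 has zinc fingers and belongs to the synMuv B proteins, which act on chromatin to keep genes repressed and restrain vulval fate.

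LIN-13 peaks were scarce at the ceh genes. The peaks past the threshold of the irreproducible discovery rate (IDR), 2141 in number and called on both replicates pooled, had summits at 2 of the 62, ceh-38 and ceh-8. That is 3.23% (exact 95% interval 0.393 to 11.2%, counting error only), beside 15.8% of all protein-coding genes. Within 500 bp of an annotated 5′ end, only ceh-38 had an IDR summit, 1 of 62 (1.61%, exact 95% interval 0.0408 to 8.66%). The share of all genes, 6.99%, lay inside that interval. The 34 other homeobox genes of the prepared list, such as unc-86 and mec-3, which specify touch neurons, and vab-3, the worm Pax6 gene, had an IDR summit in 0 cases (exact 95% interval 0 to 10.3%). No test of the difference between gene lists was made, and no comparison between samples of different conditions exists in this series. Signal values of peaks are those of the authors, on a scale that is not stated, and ran from 40.1 to 634.7 over the nuclear IDR peaks with a median of 56.5.

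ceh-38 had the highest peak of the 62 genes. It encodes a onecut-type protein, 1 of several CUT homeodomain proteins that act together in neurons across the worm's nervous system. The gene lay on the plus strand of chromosome II from 6951526 to 6955409 (ce11). Its peak, from 6951369 to 6951704, had a signal value of 66.2 and rank 190 in replicate 1, 34.4 and rank 631 in replicate 2, and 103.8 and rank 259 in the pooled list. It was therefore among the 2141 highest peaks of both replicates, although the value in replicate 2 was the lower. The summit was 11 bp inside the 5′ UTR of the isoforms that begin farthest upstream. On the other side, malt-1, a paracaspase gene on the minus strand, began 237 bp from the summit, and the peak reached into the region between the 2 genes. The other 3 pooled peaks of the ceh-38 window had signal values from 9.1 to 10.6. The region between the annotated 5′ ends of malt-1 and ceh-38 (chrII:6951301-6951525, 225 bp, plus strand, WBcel235) is shown because it holds the upstream part of the highest peak, with the 157 bases inside the peak in capitals.
malt-1 to ceh-38: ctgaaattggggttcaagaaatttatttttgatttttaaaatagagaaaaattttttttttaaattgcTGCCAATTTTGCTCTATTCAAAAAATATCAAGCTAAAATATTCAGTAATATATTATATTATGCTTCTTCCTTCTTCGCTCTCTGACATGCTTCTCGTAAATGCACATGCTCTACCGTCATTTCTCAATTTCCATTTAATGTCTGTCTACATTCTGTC
Its GC content was 28.9%, beside 42.8% in the 201 bases around the summit, which reach into the gene, and neither GAGAGAG, the repeat found at many LIN-13 summits, nor TAATTA, a core sequence that many homeodomains bind, occurred in it on either strand.

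**Figure D1:**
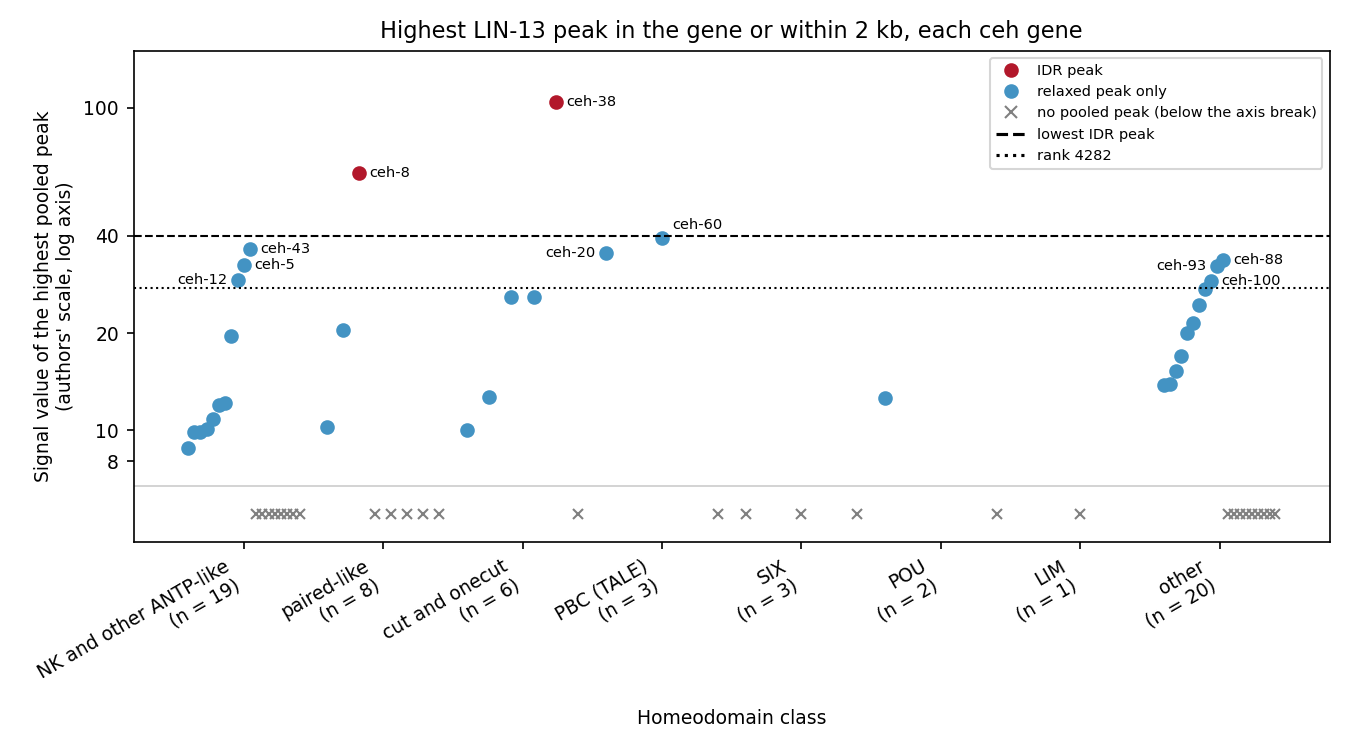
Signal value of the highest pooled peak within each of the 62 ceh genes or 2 kb of it (log axis, authors' scale), by homeodomain class; crosses are genes without a pooled peak. ceh-38 (103.8) and ceh-8 (62.9) lie above the lowest IDR peak (dashed line, 40.1), and 8 further genes lie between it and the value at rank 4282 (dotted line, 27.5).

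From the IDR list down to rank 4282, the share of genes with a peak rose for the ceh genes and for all genes. A further 8 ceh genes had their highest pooled peak between ranks 2209 and 3878, with signal values from 28.9 to 39.5. Among the 4282 highest pooled peaks, 10 of the 62 thus had a summit (16.1%, exact 95% interval 8.02 to 27.7%), up from 3.23%. Over all protein-coding genes the share went from 15.8% to 26.2%. The nearest to the threshold was ceh-60, at 39.5 against the lowest IDR value of 40.1. ceh-99 came next outside rank 4282, at rank 4309 with 27.4. Of the 10 highest peaks, 5 had the 5′ end of the ceh gene itself as the nearest protein-coding 5′ end (ceh-38, ceh-43, ceh-20, ceh-5 and ceh-100) and 5 that of another gene (ceh-8, ceh-60, ceh-88, ceh-93 and ceh-12). The same split was not counted over all genes, so it cannot be called particular to the ceh genes.

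At ceh-43 and ceh-20 the peak stood upstream of the gene. ceh-43, the worm Distal-less gene, acts in anterior hypodermis and dopamine neurons. Its highest peak was 418 bp upstream of the 5′ end, with a signal value of 18.7 in replicate 1, 11.9 in replicate 2 and 36.5 pooled (rank 2569). A second peak, in an intron 439 bp downstream of the 5′ end, had 18.7 in replicate 1, 6.0 in replicate 2 and 24.3 pooled. Replicate 1 was the higher at both. The upstream summit lay inside a tRNA gene of 73 bp on the minus strand, overlapped by the annotated non-coding RNA C28A5.11 of 90 bp on the plus strand. The intronic peak too was within 200 bp of a tRNA gene and of a non-coding RNA, C28A5.12.

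ceh-20 encodes the worm Extradenticle/Pbx protein, a partner of Hox proteins on DNA. The highest peak was 703 bp upstream of its 5′ end, with 13.5 in replicate 1 (rank 6912), 15.8 in replicate 2 (rank 3169) and 35.3 pooled (rank 2711). At ceh-100, whose 21503 bp make it the longest of the 62, the highest peak was 224 bp upstream of the 5′ end, with 13.3 in replicate 1, 10.5 in replicate 2 and 28.9 pooled (rank 3878). No value of these 2 genes reached the level of the 2141st peak in either replicate, 24.3 in replicate 1 and 19.3 in replicate 2. The 201 bases around these 3 summits are shown on the plus strand of WBcel235 because they are the highest peaks next to the genes' own 5′ ends after that of ceh-38, ceh-5 left aside: chrIII:4450261-4450461 at ceh-43, chrIII:6979081-6979281 at ceh-20 and chrII:12603804-12604004 at ceh-100. Capitals mark GTTCGANTC, the core of the tRNA B box, read on the minus strand at ceh-43, and GAGAGAG, read on the minus strand at ceh-100.
ceh-43: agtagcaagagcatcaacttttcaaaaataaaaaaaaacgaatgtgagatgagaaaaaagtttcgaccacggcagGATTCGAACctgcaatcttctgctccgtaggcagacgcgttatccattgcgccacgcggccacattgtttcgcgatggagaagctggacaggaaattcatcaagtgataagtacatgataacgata
ceh-20: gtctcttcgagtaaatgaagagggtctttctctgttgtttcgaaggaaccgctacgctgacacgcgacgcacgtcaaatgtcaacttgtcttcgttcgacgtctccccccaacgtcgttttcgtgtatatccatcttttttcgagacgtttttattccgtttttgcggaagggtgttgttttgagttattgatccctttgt
ceh-100: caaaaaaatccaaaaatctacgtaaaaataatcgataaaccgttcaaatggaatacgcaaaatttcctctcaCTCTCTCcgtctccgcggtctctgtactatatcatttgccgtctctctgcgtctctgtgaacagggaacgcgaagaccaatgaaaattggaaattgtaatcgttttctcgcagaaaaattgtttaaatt
Among the windows of 201 bp around nuclear IDR summits, GAGAGAG on either strand was in 19.8%, GTTCGANTC in 5.23% and TAATTA in 5.0%. Around pooled summits ranked below the IDR list these shares were 6.4%, 1.21% and 8.21%. The GC content was 43.3% at ceh-43, 45.3% at ceh-20 and 37.8% at ceh-100, beside means of 43.8% for IDR summits and 36.3% for the lower ones. Among the highest peaks of the other named genes, the window at ceh-12 held GTTCGANTC and those at ceh-8 and ceh-88 held TAATTA.

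ceh-60 and ceh-88 were the members whose position against the threshold differed between replicates. ceh-60 encodes a second Pbx-type protein, known for its part in vitellogenin production in the intestine, and had 7 pooled peaks in its window. The highest was in an intron 7113 bp from the 5′ end, near the gene's 3′ end, with 19.4 in replicate 1 (rank 3370), 19.9 in replicate 2 (rank 1996) and 39.5 pooled. The next was 1795 bp beyond the gene's 3′ end, in a coding exon of ets-4, an ETS transcription factor gene, with 32.7 pooled. Only 2 of the 7 lay upstream of ceh-60, at 21.3 and 11.7. For ceh-88 the highest of 6 pooled peaks was 1251 bp beyond the gene and 545 bp upstream of C49C3.15, with 14.4 in replicate 1 (rank 6160), 20.8 in replicate 2 (rank 1813) and 33.6 pooled (rank 2972). A peak 84 bp upstream of ceh-88 itself had 28 pooled. Both genes were thus within the 2141 highest peaks of replicate 2 and outside those of replicate 1. Signal values of the replicates are not on 1 level. By rank, 7 of the 10 highest peaks stood higher in replicate 2, those of ceh-8, ceh-60, ceh-20, ceh-88, ceh-5, ceh-12 and ceh-100. At ceh-12 the ranks were nearly equal, 4879 in replicate 1 and 4876 in replicate 2. The same count was not made over all peaks.

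**Figure D2:**
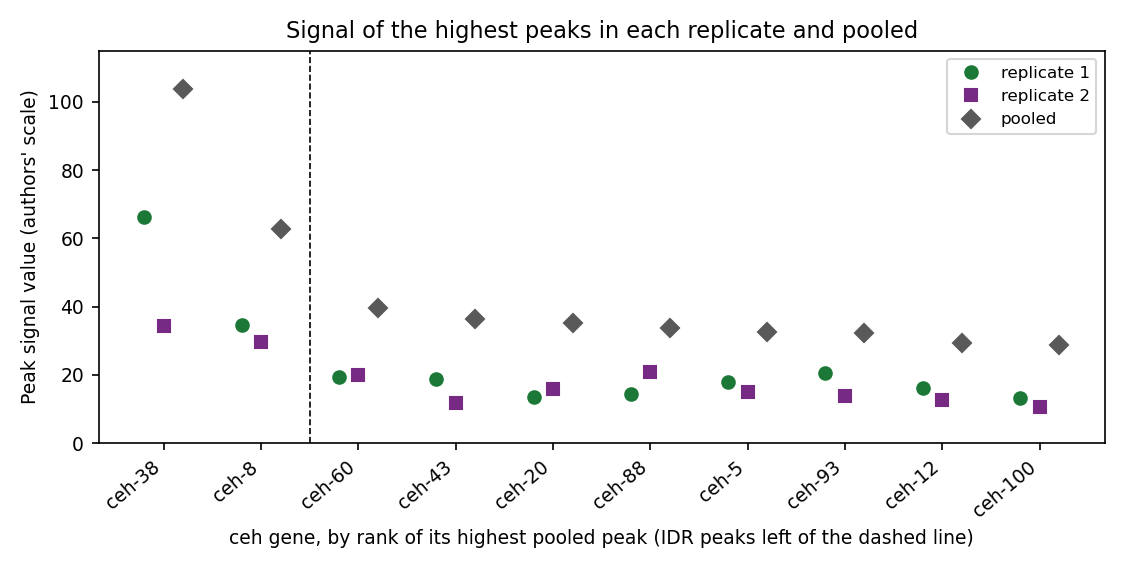
Signal value (authors' scale) of the highest peak of 10 ceh genes in replicate 1, in replicate 2 and in the pooled list, in order of pooled rank. Replicate 1 is the higher at ceh-38 (66.2 against 34.4), and ceh-60, ceh-20 and ceh-88 are the 3 genes with the higher value in replicate 2, whose values run lower in general (19.3 at the 2141st peak against 24.3).

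The IDR peak of ceh-8 stood at the 3′ end of the gene. The gene, the worm counterpart of the retinal homeobox gene Rax, lay on the minus strand of chromosome I from 8245505 to 8250948. The peak had a signal value of 34.6 in replicate 1 (rank 989), 29.5 in replicate 2 (rank 871) and 62.9 pooled (rank 848). Its replicate values lay closer together than those of ceh-38. The summit was in the 3′ UTR of ceh-8 and inside ZK265.11, an annotated non-coding RNA of 76 bp on the same strand, and 652 bp upstream of col-63, a collagen gene. This summit was 1352 bp downstream of the nearest annotated 5′ end of ceh-8, and no pooled summit lay closer to any 5′ end of the gene.

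The 3 members not yet described had their highest peak 1475 bp downstream, 1667 bp upstream and 1163 bp downstream of the gene. That of ceh-93 (20.6 in replicate 1, 13.7 in replicate 2, 32.2 pooled) was 201 bp upstream of ife-2, which encodes a cap-binding translation initiation factor. A lower peak, 83 bp upstream of the 5′ end of ceh-93 itself, had 6.9 in replicate 1, 10.6 in replicate 2 and 17.2 pooled (rank 9683). The highest peak of ceh-5, a Vax-type gene (17.9, 14.9 and 32.6 in the same order), lay inside ocrl-1, in an intron, and in the 3′ UTR of eat-16. That of ceh-12, the worm HB9 gene of motor neurons (16.2, 12.5 and 29.3), lay in an intron of col-54 and inside a tRNA gene of 73 bp, overlapped by F33D11.15, an annotated non-coding RNA. With ceh-8 and ceh-43, 3 of the 10 highest peaks were within 200 bp of a tRNA or other annotated non-coding RNA gene (30%), beside 25.2% of nuclear IDR peaks and 20% of nuclear peaks down to rank 4282. How far these RNA genes account for the peaks was not tested.

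**Figure D3:**
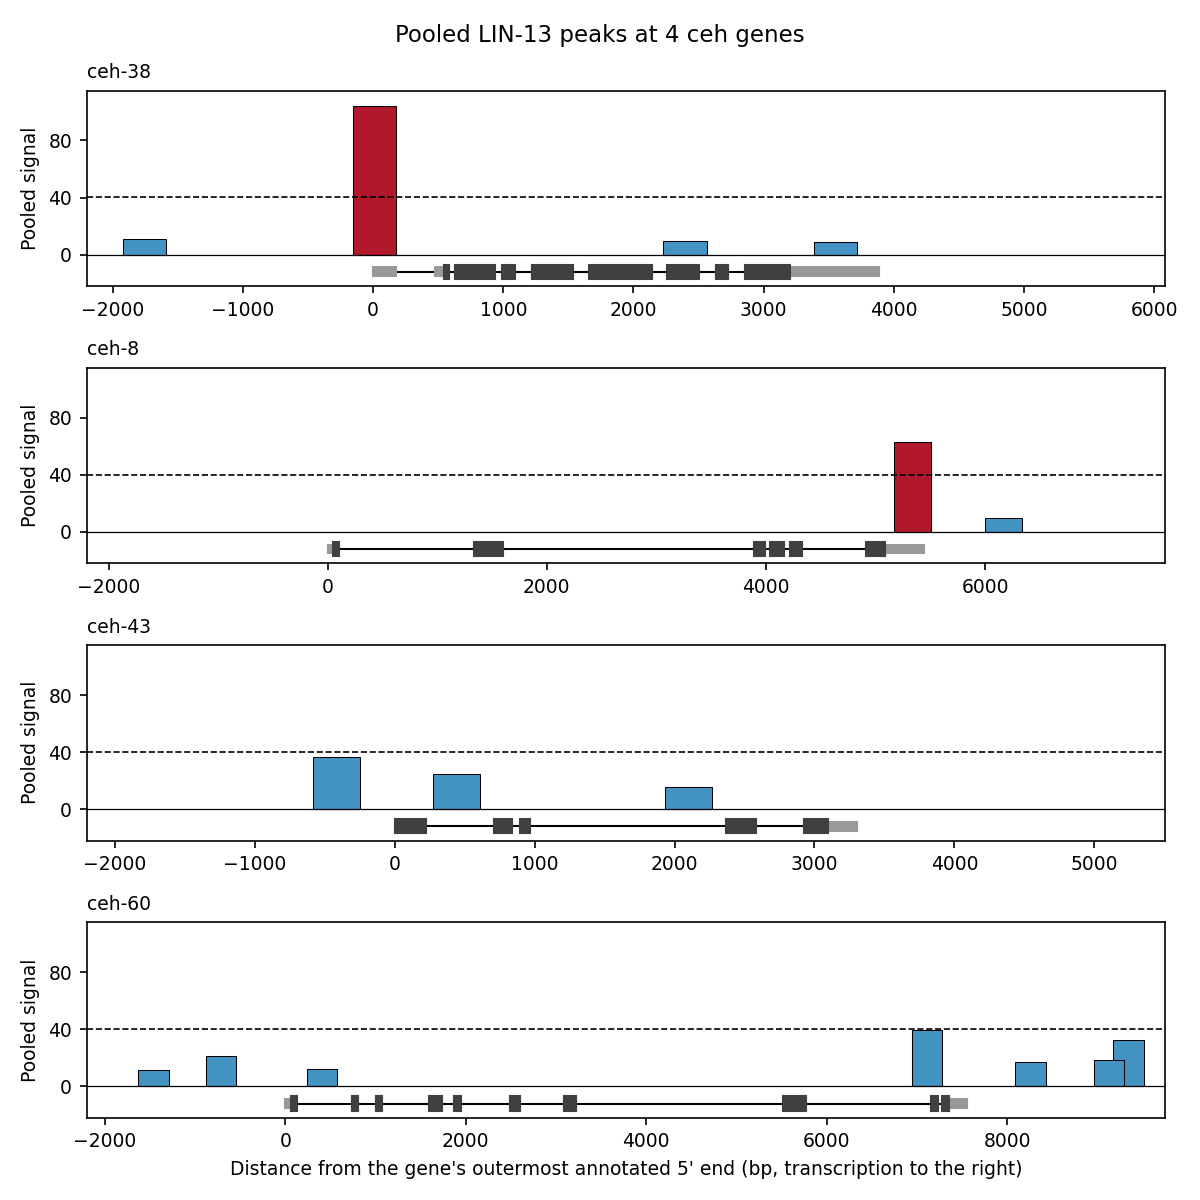
Pooled LIN-13 peaks (bars, width to scale, height the authors' signal value) at ceh-38, ceh-8, ceh-43 and ceh-60, by distance from the outermost annotated 5′ end, with the longest isoform drawn below (thin boxes untranslated, thick boxes coding). The IDR peaks (red) sit at the 5′ end of ceh-38 (103.8) and at the 3′ end of ceh-8 (62.9); relaxed peaks are blue and the dashed line is the lowest IDR value, 40.1.

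In each replicate the ceh share lay under that of all genes, but the interval of replicate 2 reached the share of all genes. Among its own 2141 highest peaks, replicate 1 had a summit at 2 of the 62 genes, ceh-38 and ceh-8, beside 15.8% of all protein-coding genes. Replicate 2 had one at 4 (6.45%, exact 95% interval 1.79 to 15.7%), those genes with ceh-60 and ceh-88, beside 15.5% of all genes. Neither replicate had one at any of the 34 other homeobox genes. Both IDR peaks at ceh genes overlapped one of the 2141 highest peaks of each replicate, which 60.9% of the 2121 nuclear IDR peaks did. The 2 shares are not of like peaks. Those at ceh genes had pooled ranks 259 and 848, whereas the 60.9% covers peaks down to the threshold.

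Most ceh genes had no pooled peak within rank 4282 (16.1% had one), and the same held over all protein-coding genes (26.2% had one). Among genes with a pooled peak, the median rank of the highest was 7524 for ceh genes, beside 6398 over all genes. The relaxed lists hold 30000 peaks each, background included, and the pooled one had a summit at 33 of the 62 genes (53.2%, exact 95% interval 40.1 to 66.0%), beside 67.2% of all protein-coding genes and 18 of the 34 other homeobox genes (52.9%). Of the 33, 29 had a summit in both replicates' lists as well (46.8% of the 62, beside 58.7% of all genes). A further 12 genes had a summit in the list of a replicate and not in the pooled list (19.4% beside 14.4%), and 17 had none in any of the 3 lists (27.4% beside 18.4%). These 17 included ceh-30 and ceh-31, neighbouring BarH genes, ceh-36, an Otx gene of sensory neurons, ceh-17, a Phox2-type gene, ceh-40, the third Pbx-type gene, and ceh-33.

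By class, IDR summits were at 1 of 6 cut and onecut genes (ceh-38, 16.7%), 1 of 8 paired-like genes (ceh-8, 12.5%) and 0 of the other 48, beside 15.8% of all protein-coding genes, a share near that of both classes with a summit. Pooled relaxed summits were at 5 of the 6 cut and onecut genes (83.3%) and 3 of the 8 paired-like genes (37.5%), beside 67.2% of all genes. The cut and onecut count holds shared summits, 1 counted for both ceh-21 and ceh-39 and 1 for both ceh-21 and ceh-41. Of these, ceh-48, a pan-neuronal gene, had its highest signal value at 12.7. ceh-21 and ceh-39, the latter an X-chromosome signal of sex determination, shared a peak of 25.9 at rank 4754. The NK and other ANTP-like class had 11 of 19 with a pooled summit (57.9%), of which ceh-43, ceh-5 and ceh-12 were within rank 4282. ceh-22, the Nkx2-5 counterpart of pharyngeal muscle, had none, and the single pooled peak of ceh-24, an NK2-type gene, had a signal value of 12. None of the 3 sine oculis-type genes (ceh-32, ceh-33 and ceh-34) had a pooled summit, nor had the LIM gene ceh-14. Of the POU genes, ceh-6 had none and the highest peak of ceh-18 had a signal value of 12.6 at rank 16229. Some genes without a pooled summit had one in a single replicate's list. In replicate 1 these included ceh-32 (14.3, rank 6194), ceh-14 (8.1) and ceh-6 (6.4), and in replicate 2 ceh-22 (6.6) and ceh-34 (4.4). Of the 3 PBC genes, ceh-60 and ceh-20 were within rank 4282. The remaining 20 genes, for which no class was set, had 11 with a pooled summit (55.0%).

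Of the 34 other homeobox genes, 3 had a pooled summit within rank 4282 (8.82%, exact 95% interval 1.86 to 23.7%), beside 26.2% of all protein-coding genes. The highest was at unc-62, the Meis-type partner of Pbx proteins, with 36.7 at rank 2534. irx-1, of the Iroquois type, had 31.0 and dsc-1 had 29.4.

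The ceh share stayed under that of all genes at each depth of the pooled list, by an amount that varied. Among the 500 highest pooled peaks 1 ceh gene had a summit, and the ceh share was 0.362 of that of all genes. At 1000 peaks the count was 2 (0.373 of the share of all genes), at the 2141 of the IDR list 2 (0.205), at 4282 peaks 10 (0.615), at 8000 peaks 18 (0.765), at 15000 peaks 22 (0.681) and at 30000 peaks 33 (0.792). The ratio at the IDR threshold was the lowest of these depths, with ceh-60 just outside it.

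The ceh share of IDR summits also varied with the distance allowed. Inside gene bodies it was 2 of 62 (3.23%), near the 2.83% of all genes and resting on ceh-8 and on ceh-38, whose summit is 11 bp inside the gene. With 500 bp on either side it was still 3.23%, beside 10.2%. Pooled relaxed summits inside gene bodies were at 20 of the 62 (32.3%), beside 38.3% of all genes. Within 5 kb 8 ceh genes had an IDR summit (12.9% beside 24.2%), within 10 kb 14 (22.6% beside 35.8%) and within 20 kb 30 (48.4% beside 52.7%). The 6 added at 5 kb were ceh-16, ceh-39, ceh-19, ceh-60, ceh-24 and ceh-5. The median distance from a ceh gene to the nearest IDR summit was 20.9 kb, beside 18.1 kb over all genes, and the farthest were ceh-81, ceh-82 and ceh-83 on chromosome II, at 210 to 214 kb.

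**Figure D4:**
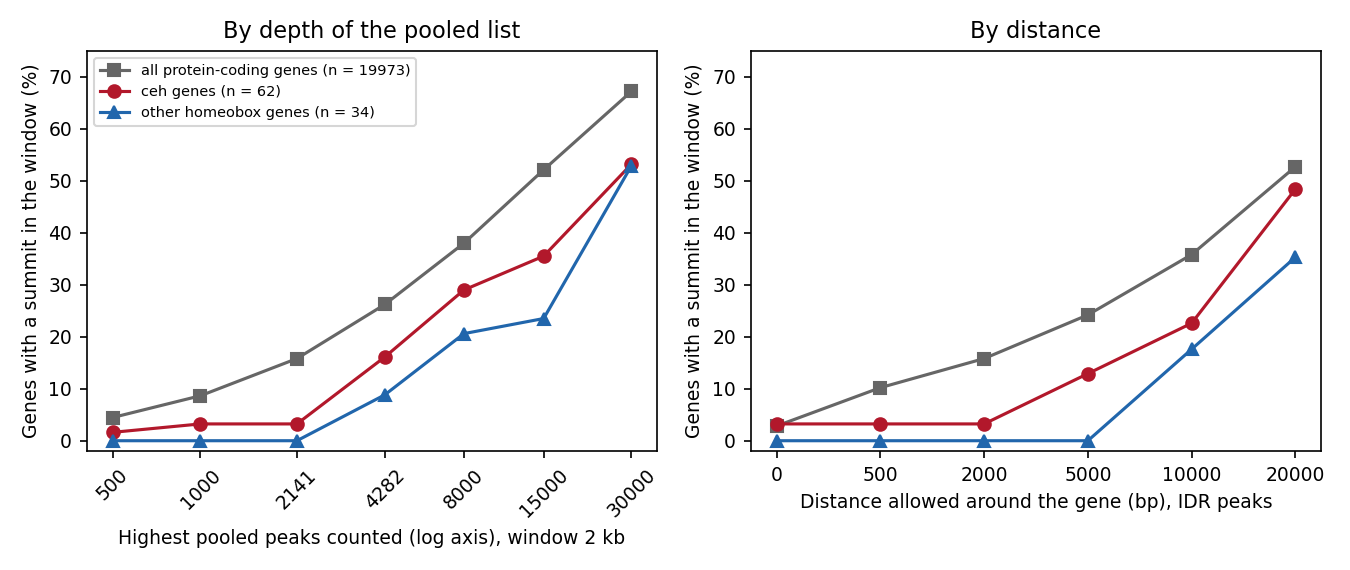
Share of genes with a LIN-13 summit in the window, for 62 ceh genes, 34 other homeobox genes and 19973 protein-coding genes, by the number of highest pooled peaks counted (left, log axis, 2 kb window) and by the distance allowed around the gene for IDR peaks (right). The ceh share is 3.23% beside 15.8% at the IDR list and 2 kb, and 48.4% beside 52.7% at 20 kb.

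The ceh genes were not shorter than other genes by the median, but a smaller share had another gene's 5′ end in the window. Their median length was 2735 bp (515 to 21503 bp), beside 2027 bp over all protein-coding genes, and their windows held 4.48 IDR summits per Mb, beside 22.3 in the windows of all genes. Pooled relaxed summits numbered 197 per Mb beside 307. The 5′ end of another protein-coding gene was in the window of 36 of the 62 (58.1%, beside 73.9% of all genes). Both IDR summits were at such genes, 2 of 36, where 18% of all genes of that kind had one. Pooled relaxed summits were at 24 of these 36 (66.7%), near the 67.9% of all genes of that kind. Of the 26 ceh genes with no other 5′ end in the window none had an IDR summit, where 9.56% of all such genes had one, and 9 had a pooled relaxed summit (34.6% beside 65.3%).

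The chromosomes on which the ceh genes lie do not all carry the same density of peaks. The X chromosome held 18 of the 62, of which 0 had an IDR summit beside 15% of its protein-coding genes. Chromosome V, where 8.95% of genes had one, held 12 ceh genes with 0, and chromosome III, where 23.7% had one, held 7 with 0. Chromosome IV held 4 with 0 (14.5% of its genes), chromosome II 13 with 1 (16.3%) and chromosome I 8 with 1 (21.8%). At the shares of their own chromosomes, 9.88 of the 62 would have had an IDR summit.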

How the data were processed

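LIN-13 chromatin immunoprecipitation was deposited as peak lists for 2 biological replicates of 1 group. Per the deposited listings, the authors called relaxed lists for each replicate and for both pooled, with a control library, and derived the IDR list from them. How reads were aligned and peaks called was not given in the sources used here. Signal values were deposited by the authors with no stated scaling. Summit offsets (in bp) are the authors' too. Depth is unknown, since the files hold no read counts. The 2141 IDR peaks were the top of the pooled list by signal, so ranks are ranks in the pooled list, mitochondrial peaks included. The ce10 lists were not used.

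Summits were placed on ce11 with Ensembl release 115 and the RefSeq copy of WBcel235. Distances to a 5′ end use the nearest annotated coding transcript. Annotated 5′ ends can be trans-splice sites. A replicate's value is that of its highest relaxed peak overlapping the pooled peak by at least 1 bp. Intervals are exact Clopper-Pearson. A summit can count for several genes. The gene list, classes and motifs were chosen with earlier results of these data known. Genes named are those with an IDR summit or a pooled peak within 2 times the IDR number, with further members given as examples of their class, chosen after their values were seen. The window count was checked on simulated summits: it found 200 of 200 planted genes in each of 5 runs over 19973 genes. Those summits were planted inside the windows, so the check concerns the counting only and not the ceh result. Alternatives were other distances, stricter and looser lists, single replicates, peak overlap and nearest gene only. The work used SciPy 1.17.1, pandas 2.3.3 and NumPy 2.4.6 under Python 3.11.15, with matplotlib 3.10.9 for plots.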

Additional observations from a re-analysis of the deposited data

How the results depend on the processing

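No paired analysis was possible because a single group was assayed. Depth is unknown, so how it shapes each list could not be measured. The count of 2 ceh genes with an IDR summit was also found within the gene, at 500 bp, in the higher 1070 IDR peaks, with peak overlap and with the nearest gene only. It was 8 at 5 kb and 10 in the 4282 highest pooled peaks, and 2 to 4 with a single replicate (4 in replicate 2 alone, with ceh-60 and ceh-88). Distances of 10 and 20 kb, chosen after seeing the data, gave 14 and 30. Distinct summits numbered 2 at first, 8 at 5 kb, 12 in the looser list, 2 to 4 with a single replicate, 18 at 10 kb and 38 at 20 kb. The other homeobox genes went from 0 to 3 in the looser list (8.82% beside 26.2% of all genes). They numbered 6 at 10 kb (17.6% beside 35.8%) and 12 at 20 kb (35.3% beside 52.7%). Genes with a relaxed pooled summit fell from 33 to 20 within the gene alone (38.3% of all genes), and those with an IDR summit 500 bp or less from a 5′ end rose from 1 to 4 in the looser list (12.2% of all genes). Both IDR peaks kept their support from both replicates under each overlap rule. Except within the gene, where the shares were close, the ceh share lay under that of all genes in each setting of the 2 kb count.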
